A study of Mus musculus with 36 samples.

Results

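Glutathione S-transferases (GSTs) were followed through 10 genes, namely Gsta3 and Gsta4 of the alpha class, Gstm1, Gstm2, Gstm3 and Gstm4 of the mu class, Gstp1 of the pi class, Gstt1 of theta, Gsto1 of omega and Gstk1 of kappa. They were found by gene symbol among the array probes, and together they had 13 probes of the 14817 that carry a symbol. For a gene with several probes (Gstm1, Gstm2 and Gstk1) the brightest by its mean over the 36 arrays was used, which for Gstm2 and Gstk1 is not the brighter one in brain. The 10 genes stand among 12394 genes on the array. Of these 10, Gstm3 was measured in liver alone and the other 9 in brain, heart, kidney and liver.

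The arrays came from female transgenic mice of strain FVB, 6 to 8 weeks old, whose transgene was read out by luciferase imaging. Mock mice were set beside mice given lipopolysaccharide (LPS, a bacterial outer membrane component that drives acute inflammation) at 4 mg/kg into the peritoneal cavity, and beside mice given the same LPS and, 10 min later, genipin, an iridoid compound from gardenia fruit. Tissue was taken 4 h later. There were 3 one-colour arrays per tissue and treatment, 36 in all, and 2 questions follow from the design: what LPS did to an organ, and how far that changed when genipin came after it. The design lists genipin at 1, 10 or 100 mg/kg. The sources used here do not give the dose behind these arrays, the kind of mock injection or whether the 3 arrays of a group are separate mice. The spread tested is therefore that between arrays, which may be technical. There was no group given genipin alone.

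GSTs join the tripeptide glutathione to reactive, electrophilic molecules, which makes these more soluble and ready for export. Alpha, mu and pi enzymes are abundant cytosolic proteins of liver and kidney, and several are known targets of the transcription factor NRF2, which binds antioxidant response elements together with small MAF proteins. Omega enzymes act more as thiol transferases and reductases, and the kappa enzyme lies in mitochondria and peroxisomes. In the acute-phase response, liver is known to lower many drug-metabolising enzymes.

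Values are deposited intensities, which the authors had normalized within each tissue, so levels were compared only between treatments of one tissue and one probe. An array reading of 60000 or more was taken as saturated, and 263 (the 5th percentile of all readings) as the floor. Differences are between group means on the log2 scale ± SE, with 3 arrays a group, tested by limma over all genes of the tissue with Benjamini-Hochberg adjustment and a threshold of 0.05. Arrays of a group correlated at 0.985 to 0.998 and no pair was identical. The tissue labels were set beside the markers measured, whatever their level. These were 7 of 8 hepatocyte markers in liver, 6 of 6 proximal tubule markers in kidney, 6 of 6 ventricular markers in heart and 3 of 6 neuronal markers in brain. Some were measured elsewhere too, such as 4 of 8 hepatocyte markers in kidney and 2 of 6 neuronal markers in heart, so this is a weak check.

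In liver, 5 of the 8 members that could be tested fell with LPS (Gsta4, Gstm4, Gstp1, Gstt1 and Gsto1) and none rose, in a tissue where 37.5% of all genes fell and 67.3% were called in either direction. The members' median log2 difference was −0.54, against −0.04 over all genes. In LPS+genipin livers 6 of 8 were higher than in LPS livers (Gsta4, Gstm2, Gstm3, Gstm4, Gstp1 and Gsto1) and none was lower, against 29.9% of all genes called higher and 55.1% called in either direction. Here the members' median was 0.54 and that of all genes 0.04. Gsta3 and Gstm1 were saturated on all liver arrays and could not be compared. Both comparisons use the same 3 LPS livers, so they are not independent.

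**Figure D1:**
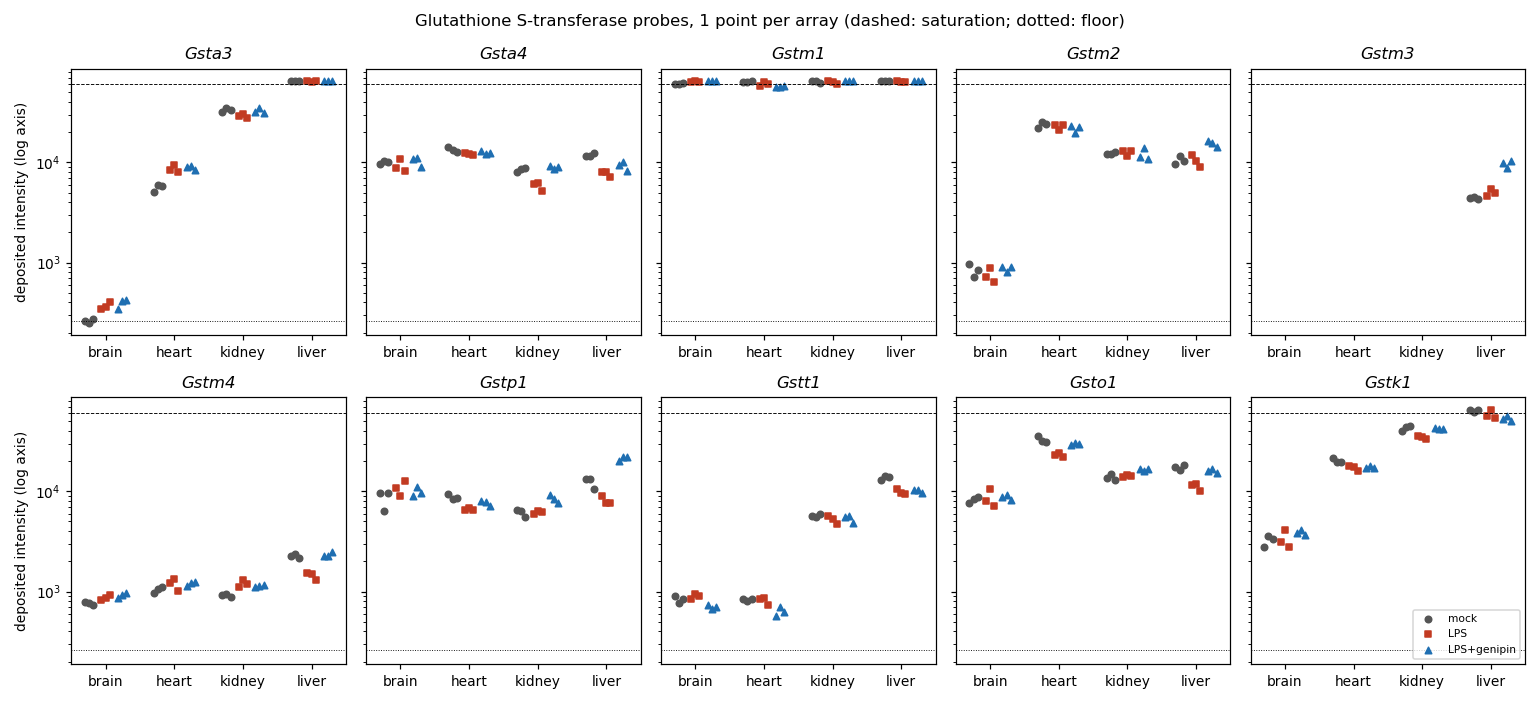
Deposited intensity (log axis) of the 10 GST genes, 1 point per array, by tissue and treatment; the dashed line is the saturation limit of 60000 and the dotted line the floor of 263. In liver, Gstp1, Gstm3 and Gstm2 lay highest in the 3 LPS+genipin arrays, and Gsta3 and Gstm1 lay above the saturation limit on every array.

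Gstp1, the pi-class enzyme, had the largest difference between LPS+genipin and LPS liver of the members tested. Its intensity was 13233, 13388 and 10606 in the 3 mock livers, 9007, 7683 and 7708 in the LPS livers, and 20263, 21923 and 22034 in the LPS+genipin livers. The 3 groups did not overlap, with LPS lowest and LPS+genipin highest. Gstp1 thus fell by 0.61 ± 0.11 with LPS (adjusted p = 0.0013) and was 1.40 ± 0.11 higher, or 2.64-fold, in LPS+genipin than in LPS (adjusted p = 2.72e-05). It also stood above mock, by 0.79 ± 0.11 or 1.73-fold (adjusted p = 3.31e-04). Of the genes tested in liver, 98.7% had a lower difference between LPS+genipin and LPS than Gstp1.

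Gstp1 moved in the same direction in heart, with smaller steps. Its heart intensity was 9310, 8367 and 8612 in mock, 6506, 6897 and 6533 in LPS, and 8019, 7911 and 7112 in LPS+genipin. All LPS hearts lay below the other hearts. It fell by 0.40 ± 0.07 with LPS (adjusted p = 0.0019), and the LPS+genipin hearts were 0.21 ± 0.07 above the LPS hearts (adjusted p = 0.041). The latter call was lost without any 1 of 7 arrays (mock 2 and 3, LPS 1, 2 and 3, LPS+genipin 1 and 2; adjusted p = 0.0518 to 0.125).

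In kidney Gstp1 read 6524, 6437 and 5491 in mock, 5990, 6297 and 6184 in LPS, and 9143, 8331 and 7676 in LPS+genipin. Mock and LPS kidneys overlapped, and every LPS+genipin kidney lay above both. The difference was 0.01 ± 0.08 for LPS against mock (adjusted p = 0.97), 0.44 ± 0.08 for LPS+genipin against LPS (adjusted p = 0.0028) and 0.45 ± 0.08 for LPS+genipin against mock (adjusted p = 0.0035). In brain it read 9659, 6316 and 9536 in mock, 10837, 8913 and 12781 in LPS, and 8933, 11134 and 9654 in LPS+genipin. These brain groups overlapped, and none of the 3 comparisons passed the test.

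The mu-class genes Gstm3, Gstm2, Gstm1 and Gstm4 lie next to one another on mouse chromosome 3, between positions 107963696 and 108045179 of GRCm38.p6. Gstp1 lies on chromosome 19 at 4035411 to 4037912. Near-identical copies exist in both families and the probe sequences were not used here, so a share of signal from a related copy cannot be told apart from the named gene. The promoters of the 4 members with the largest liver differences between LPS+genipin and LPS are shown, with that of Gsta3, which holds the one antioxidant response element core found, as RefSeq places them on GRCm38.p6 (250 bases before the start of the gene to 50 after it, read 5′ to 3′ on the gene's strand). Capitals mark matches on either strand to the antioxidant response element core TGACNNNGC, the AP-1 letters TGANTCA or the xenobiotic response element core GCGTG. These motifs were chosen after the values were known.
Gstp1, chr19:4037863-4038162, minus strand: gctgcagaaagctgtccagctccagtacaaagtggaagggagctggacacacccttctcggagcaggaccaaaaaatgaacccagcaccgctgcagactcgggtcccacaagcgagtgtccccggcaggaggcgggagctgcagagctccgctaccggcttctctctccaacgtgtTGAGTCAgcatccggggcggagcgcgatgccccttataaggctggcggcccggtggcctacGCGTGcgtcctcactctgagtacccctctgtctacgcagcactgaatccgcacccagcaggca
Gstm3, chr3:107969125-107969424, minus strand: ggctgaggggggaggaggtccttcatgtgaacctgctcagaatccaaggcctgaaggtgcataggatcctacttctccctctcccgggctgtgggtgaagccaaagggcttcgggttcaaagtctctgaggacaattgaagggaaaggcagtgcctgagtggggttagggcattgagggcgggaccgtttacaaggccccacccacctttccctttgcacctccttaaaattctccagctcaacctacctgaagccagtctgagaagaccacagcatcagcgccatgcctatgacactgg
Gstm4, chr3:108044807-108045106, minus strand, first of 2 starts: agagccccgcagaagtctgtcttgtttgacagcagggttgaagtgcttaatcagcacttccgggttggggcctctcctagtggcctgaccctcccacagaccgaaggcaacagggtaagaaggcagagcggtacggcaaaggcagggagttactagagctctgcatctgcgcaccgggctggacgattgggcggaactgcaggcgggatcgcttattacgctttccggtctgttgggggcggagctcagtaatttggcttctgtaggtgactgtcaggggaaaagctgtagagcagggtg
Gstm2, chr3:107986371-107986670, minus strand: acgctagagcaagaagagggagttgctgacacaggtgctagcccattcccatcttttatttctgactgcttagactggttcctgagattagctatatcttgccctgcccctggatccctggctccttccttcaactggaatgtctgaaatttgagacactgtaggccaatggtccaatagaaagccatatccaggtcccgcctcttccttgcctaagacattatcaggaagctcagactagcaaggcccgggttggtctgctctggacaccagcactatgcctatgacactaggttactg
Gsta3, chr1:21240335-21240634, plus strand: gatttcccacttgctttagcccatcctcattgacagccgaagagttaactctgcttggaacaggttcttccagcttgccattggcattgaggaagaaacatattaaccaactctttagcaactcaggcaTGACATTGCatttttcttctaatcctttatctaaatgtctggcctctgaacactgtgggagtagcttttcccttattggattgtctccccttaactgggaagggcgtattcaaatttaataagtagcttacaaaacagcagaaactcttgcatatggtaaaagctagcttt

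Promoters were matched for 9 of the 10 members, all but Gsta4. Among these 9, the antioxidant core was found only in Gsta3 (TGACATTGC, first base at −121 from the start), where 12.39% of the 32851 promoters in the table hold it. The AP-1 letters occurred only in Gstp1 (TGAGTCA, at −74), against 7.81% of all promoters. The xenobiotic core occurred in Gstp1 and Gstm1, against 32.39% of all promoters. A match describes the letters of this window and is not a measured site. Forms of the antioxidant core other than TGACNNNGC were not searched, and in Gstp1 the AP-1 match is followed by the letters gc.

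Gstm3, measured in liver alone, was higher with genipin than in either other group. It read 4465, 4511 and 4343 in mock livers, 4640, 5391 and 4967 in LPS livers, and 9973, 8880 and 10223 in LPS+genipin livers. Mock and LPS livers lay close together, although they did not overlap, and the LPS+genipin livers stood well above both. The difference was 0.17 ± 0.07 for LPS against mock (adjusted p = 0.073), 0.96 ± 0.07 or 1.94-fold for LPS+genipin against LPS (adjusted p = 2.98e-05), and 1.12 ± 0.07 or 2.18-fold for LPS+genipin against mock (adjusted p = 6.89e-06). The difference between LPS and mock was called when LPS array 1 was left out (0.22, adjusted p = 0.0349).

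Gstm4 fell with LPS in liver and lay near the mock level in the LPS+genipin livers. Its liver readings were 2244, 2359 and 2162 in mock, 1534, 1492 and 1314 in LPS, and 2282, 2270 and 2471 in LPS+genipin. The LPS livers lay apart and the other 6 livers overlapped. It fell by 0.64 ± 0.07 with LPS (adjusted p = 1.05e-04), was 0.70 ± 0.07 higher with genipin (adjusted p = 1.34e-04), and differed from mock by 0.05 ± 0.07 (adjusted p = 0.55).

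Kidney gave the opposite sign for Gstm4. It read 927, 943 and 885 in mock kidneys, 1122, 1302 and 1196 in LPS kidneys, and 1111, 1140 and 1165 in LPS+genipin kidneys. Both treated groups lay above mock and overlapped each other, with a rise of 0.39 ± 0.06 with LPS (adjusted p = 5.58e-04) and of 0.31 ± 0.06 in LPS+genipin against mock (adjusted p = 0.0034). In brain, Gstm4 read 786, 763 and 738 in mock, 830, 868 and 922 in LPS, and 869, 934 and 962 in LPS+genipin. It rose there by 0.19 ± 0.06 with LPS (adjusted p = 0.036) and by 0.27 ± 0.06 in LPS+genipin against mock (adjusted p = 0.019). The first of these brain calls was lost without any 1 of 6 arrays (mock 1, 2 and 3, LPS 2 and 3, LPS+genipin 2; adjusted p = 0.0565 to 0.122), and the other without any 1 of 4 (mock 2 and 3, LPS+genipin 2 and 3; adjusted p = 0.0597 to 0.0807). In heart it ran from 972 to 1114 in mock, 1020 to 1339 in LPS and 1145 to 1251 in LPS+genipin. No heart comparison of Gstm4 passed, although LPS against mock did without LPS array 3 (0.29, adjusted p = 0.0244).

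Gstm2 was higher with genipin in liver by both of its probes, of which the other probe was dim there. The probe with the higher mean read 9625, 11564 and 10438 in mock livers, 11991, 10429 and 9087 in LPS livers, and 16285, 15758 and 14267 in LPS+genipin livers. Mock and LPS livers overlapped and the LPS+genipin livers lay above, with differences of −0.01 ± 0.11 (LPS against mock, adjusted p = 0.95), 0.56 ± 0.11 (LPS+genipin against LPS, adjusted p = 0.0041) and 0.55 ± 0.11 (LPS+genipin against mock, adjusted p = 0.0034). The other Gstm2 probe read 501, 471 and 438 in mock, 344, 349 and 330 in LPS, and 485, 495 and 503 in LPS+genipin. All these readings lay under the 20th percentile of all readings (511), so a floor set there would leave no difference. It gave a like step from LPS to LPS+genipin (0.54 ± 0.06, adjusted p = 1.49e-04), but it fell with LPS (−0.46 ± 0.06, adjusted p = 1.87e-04). In LPS+genipin it lay near mock (0.07 ± 0.06, adjusted p = 0.29).

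The Gstm2 probes parted further in brain, where the choice of probe by its mean over the 36 arrays decides the result. The probe used read 966, 712 and 854 in mock brains, 724, 888 and 641 in LPS brains, and 912, 804 and 909 in LPS+genipin brains, and none of its comparisons passed. The other probe read 3146, 3805 and 3458 in mock, 757, 743 and 1077 in LPS, and 358, 343 and 359 in LPS+genipin. Those 3 groups did not overlap, with −2.03 ± 0.14 for LPS against mock (adjusted p = 4.84e-05), −1.26 ± 0.14 for LPS+genipin against LPS (adjusted p = 6.66e-04) and −3.29 ± 0.14 for LPS+genipin against mock (adjusted p = 5.81e-06). Skeletal muscle markers were also high in the mock brains: the summed intensity of the 4 measured of 5 (Acta1, Mylpf, Tnnc2 and Tnnt3) was 112506 to 118985 in mock, 3416 to 3680 in LPS and 3749 to 4086 in LPS+genipin. The part of these markers in the Gstm2 values was not tested.

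**Figure D2:**
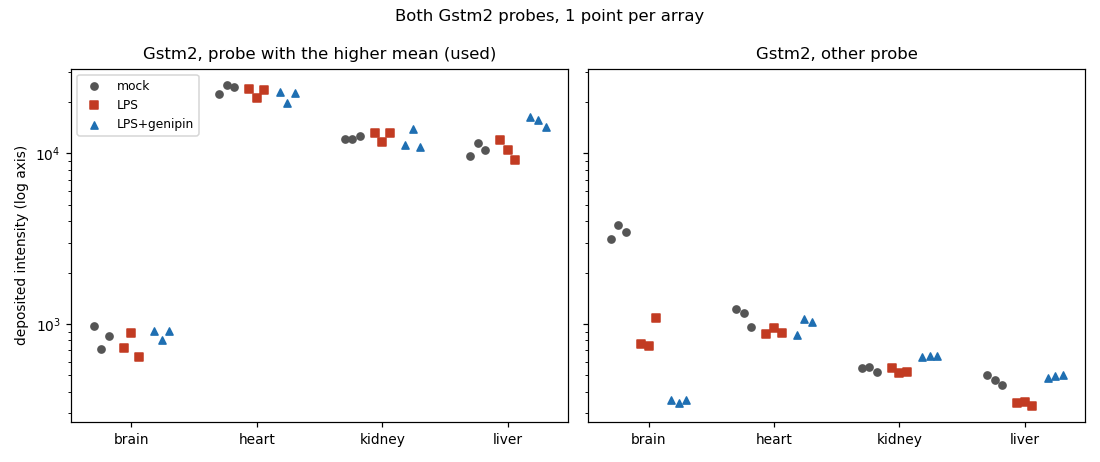
Intensity (log axis) of both Gstm2 probes, 1 point per array, by tissue and treatment. The probe used overlaps among brain groups, whereas the other probe steps down from mock (3146 to 3805) to LPS (743 to 1077) to LPS+genipin (343 to 359).

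In heart neither Gstm2 probe passed a test, with the probe used at 22204, 25285 and 24420 in mock, 23760, 21106 and 23566 in LPS, and 22883, 19834 and 22643 in LPS+genipin. In kidney the probe used read 12162, 12204 and 12704 in mock, 13109, 11716 and 13121 in LPS, and 11257, 13924 and 10947 in LPS+genipin, and these groups overlapped throughout. The other probe was higher in LPS+genipin kidneys (0.29 ± 0.04 above LPS, adjusted p = 6.93e-04; 0.24 ± 0.04 above mock, adjusted p = 0.0024). Without LPS+genipin array 2, the probe used was called the other way in kidney (−0.19 against LPS, adjusted p = 0.0381), so that no direction held across the Gstm2 probes in kidney.

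Gstm1 was too bright to follow. It was saturated on 32 of 36 arrays, which includes every brain, kidney and liver array. In heart it read 63482, 63783 and 65145 in mock, 57548, 63062 and 60388 in LPS, and 56359, 57207 and 58016 in LPS+genipin. All mock hearts were saturated and no LPS+genipin heart was. The limma difference between LPS+genipin and mock was −0.17 ± 0.05, or 1.12-fold lower, and did not pass (adjusted p = 0.058). Saturated mock readings can make this estimate too small, and the LPS+genipin readings lay close to the limit as well. Its other probe, measured in brain alone, read 163 to 231 and lay below the floor.

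Gsta4, an alpha-class enzyme that conjugates the lipid peroxidation product 4-hydroxynonenal, fell with LPS in kidney and liver. In kidney it read 8010, 8587 and 8719 in mock, 6071, 6242 and 5185 in LPS, and 9308, 8512 and 9010 in LPS+genipin. LPS kidneys lay below all others, and mock and LPS+genipin kidneys overlapped. It fell by 0.54 ± 0.08 with LPS (adjusted p = 4.49e-04) and was 0.62 ± 0.08 higher, or 1.54-fold, with genipin (adjusted p = 3.11e-04). LPS+genipin differed from mock by 0.08 ± 0.08 (adjusted p = 0.41).

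In liver Gsta4 read 11524, 11623 and 12324 in mock, 8105, 8093 and 7100 in LPS, and 9361, 10020 and 8258 in LPS+genipin. The groups did not overlap, and LPS+genipin lay between LPS and mock. It fell by 0.61 ± 0.08 with LPS (adjusted p = 3.76e-04) and was 0.36 ± 0.08 below mock in LPS+genipin (adjusted p = 0.0064). The step from LPS to LPS+genipin, 0.24 ± 0.08 (adjusted p = 0.040), was lost without any 1 of 7 arrays (mock 1, 2 and 3, LPS 2 and 3, LPS+genipin 1 and 2; adjusted p = 0.0519 to 0.129). In heart Gsta4 ran from 12637 to 14312 in mock, 11817 to 12535 in LPS and 12005 to 12903 in LPS+genipin, and in brain from 9625 to 10272, 8179 to 10839 and 9044 to 10967. No heart or brain comparison of Gsta4 passed.

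Gsta3, the alpha-class enzyme of mouse liver that detoxifies aflatoxin B1 epoxide, rose in heart and fell slightly in kidney. In heart it read 5037, 5977 and 5795 in mock, 8420, 9465 and 8046 in LPS, and 8943, 9304 and 8367 in LPS+genipin. Every treated heart lay above every mock heart, and the treated groups overlapped each other. The rise was 0.63 ± 0.09, or 1.54-fold, with LPS (adjusted p = 7.40e-04), and 0.67 ± 0.09 in LPS+genipin against mock (adjusted p = 0.0020), with 0.04 ± 0.09 between the treated groups (adjusted p = 0.76).

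The LPS hearts stood apart in their cell type markers. The summed intensity of 2 measured of 4 atrial markers was 3983 to 4358 in mock hearts, 126373 to 130967 in LPS and 3238 to 3322 in LPS+genipin, and that of 3 measured of 6 adipocyte markers was 12592 to 17858, 85686 to 97584 and 17222 to 24770. Neutrophil markers (3 measured of 6) summed to 2284 to 2488 in mock, 39892 to 45109 in LPS and 16747 to 18012 in LPS+genipin. The part of these markers in the heart values of Gsta3 and of the other members was not tested.

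Gsta3 read 32139, 35338 and 33088 in mock kidneys, 29111, 30188 and 27638 in LPS kidneys, and 31851, 34911 and 31425 in LPS+genipin kidneys. LPS kidneys lay lowest, and the other groups overlapped. It fell by 0.21 ± 0.06 with LPS (adjusted p = 0.014) and was 0.17 ± 0.06 higher with genipin (adjusted p = 0.035), a call that was lost without any 1 of 5 arrays (mock 3, LPS 1 and 3, LPS+genipin 1 and 2; adjusted p = 0.052 to 0.11). In brain Gsta3 was near the floor, at 263, 249 and 275 in mock, 346, 361 and 403 in LPS, and 342, 416 and 420 in LPS+genipin. Both treated groups lay above mock there, by 0.47 ± 0.09 (adjusted p = 0.0062) and 0.55 ± 0.09 (adjusted p = 0.0060), and with a floor at the 20th percentile (511) all brain readings of Gsta3 lay at the floor.

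Gsto1, the omega-class enzyme, fell with LPS in heart and liver and was higher with genipin in heart, kidney and liver. In liver it read 17381, 16172 and 18148 in mock, 11577, 11894 and 10124 in LPS, and 15809, 16748 and 15282 in LPS+genipin. The LPS livers lay apart below the rest, with −0.62 ± 0.08 for LPS against mock (adjusted p = 1.82e-04), 0.51 ± 0.08 for LPS+genipin against LPS (adjusted p = 9.43e-04) and −0.11 ± 0.08 for LPS+genipin against mock (adjusted p = 0.24). In heart it read 35805, 31496 and 30778 in mock, 22857, 23884 and 21932 in LPS, and 28887, 30498 and 29956 in LPS+genipin. Here the 3 groups did not overlap: Gsto1 fell by 0.51 ± 0.07 with LPS (adjusted p = 5.93e-04) and was 0.38 ± 0.07 higher with genipin (adjusted p = 0.0035). LPS+genipin lay 0.13 ± 0.07 below mock, which did not pass (adjusted p = 0.23).

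In kidney Gsto1 did not follow that pattern. It read 13582, 14730 and 13068 in mock, 13754, 14627 and 14230 in LPS, and 16559, 15828 and 16881 in LPS+genipin. Mock and LPS overlapped, and LPS+genipin kidneys lay 0.21 ± 0.05 above LPS (adjusted p = 0.011) and 0.25 ± 0.05 above mock (adjusted p = 0.0059). In brain it read 7735 to 8871 in mock, 7104 to 10494 in LPS and 8247 to 9140 in LPS+genipin, and no comparison passed.

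Gstt1, the theta-class enzyme that acts on small halogenated compounds, fell with LPS in liver. No difference between LPS and LPS+genipin livers passed the test. It read 12949, 14249 and 13747 in mock livers, 10483, 9727 and 9325 in LPS livers, and 10308, 10308 and 9646 in LPS+genipin livers. Both treated groups lay below mock and overlapped each other, with −0.47 ± 0.06 for LPS (adjusted p = 2.62e-04), −0.44 ± 0.06 for LPS+genipin against mock (adjusted p = 4.70e-04) and 0.04 ± 0.06 between them (adjusted p = 0.65).

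In brain and heart Gstt1 was lower in LPS+genipin than in LPS. In brain it read 900, 764 and 833 in mock, 836, 944 and 893 in LPS, and 736, 672 and 708 in LPS+genipin, a difference from LPS of −0.34 ± 0.07 (adjusted p = 0.012). The LPS+genipin brains lay below all the others, but their difference from mock did not pass (−0.24 ± 0.07, adjusted p = 0.074). In heart it read 843, 795 and 832 in mock, 841, 855 and 726 in LPS, and 575, 702 and 630 in LPS+genipin. The LPS+genipin hearts lay below all the others, by −0.34 ± 0.09 against LPS (adjusted p = 0.018) and −0.38 ± 0.09 against mock (adjusted p = 0.024). The first of these was lost without any 1 of 3 arrays (LPS 1 and 2, LPS+genipin 1; adjusted p = 0.0563 to 0.0577) and the other without any 1 of 5 (mock 1, 2 and 3, LPS+genipin 1 and 3; adjusted p = 0.0534 to 0.0782). In kidney Gstt1 read 5579 to 5879 in mock, 4678 to 5706 in LPS and 4795 to 5657 in LPS+genipin, with no comparison passing.

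Gstk1, the kappa-class enzyme, fell with LPS in heart by both of its probes. The probe used read 21715, 19578 and 19613 in mock hearts, 17798, 17641 and 16019 in LPS hearts, and 17065, 17976 and 17153 in LPS+genipin hearts. Treated hearts lay below mock hearts, with −0.24 ± 0.07 for LPS against mock (adjusted p = 0.018, and 0.0503 without mock array 1), and the other probe gave −0.23 ± 0.06 (adjusted p = 0.019). With all arrays, LPS+genipin against mock missed the threshold (−0.22 ± 0.07, adjusted p = 0.052). That comparison was called without LPS array 3 (adjusted p = 0.0338), with a floor at the 20th percentile (0.0444) and with limma-trend (0.0291). The other probe gave −0.14 ± 0.06 for it (adjusted p = 0.16). In kidney the probe used read 39955, 43726 and 45119 in mock, 35900, 35273 and 33602 in LPS, and 42428, 42131 and 42059 in LPS+genipin. It fell by 0.30 ± 0.05 with LPS (adjusted p = 0.0013) and was 0.27 ± 0.05 higher with genipin (adjusted p = 0.0025), whereas the other probe gave −0.12 ± 0.06 (adjusted p = 0.11) and 0.03 ± 0.06 (adjusted p = 0.68).

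In liver all 3 mock arrays of Gstk1 were saturated, at 64734, 62485 and 65483, against 56054, 64141 and 54396 in LPS and 52259, 56877 and 50244 in LPS+genipin. The limma estimate for this probe was 1.21-fold lower in LPS+genipin than in mock (adjusted p = 0.013). Saturated mock readings can make that estimate too small, and it also carries the spread between arrays, so it is no firm minimum. The other probe, which was not saturated, gave −0.13 ± 0.06 (adjusted p = 0.12). LPS against mock was not called on all arrays by the probe used (−0.15 ± 0.07, adjusted p = 0.12) or by the other probe (−0.12 ± 0.06, adjusted p = 0.14). The probe used was called without LPS array 2 (−0.22, adjusted p = 0.0218), an array that was itself saturated. In brain the probe used read 2814 to 3571 in mock, 2786 to 4069 in LPS and 3653 to 4124 in LPS+genipin, with no call on all arrays and a call for LPS+genipin against LPS without LPS array 2 (0.39, adjusted p = 0.0371). The other Gstk1 probe was 0.30 ± 0.06 higher in LPS+genipin than in LPS brains (adjusted p = 0.0071) and 0.24 ± 0.06 higher than in mock (adjusted p = 0.030).

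**Figure D3:**
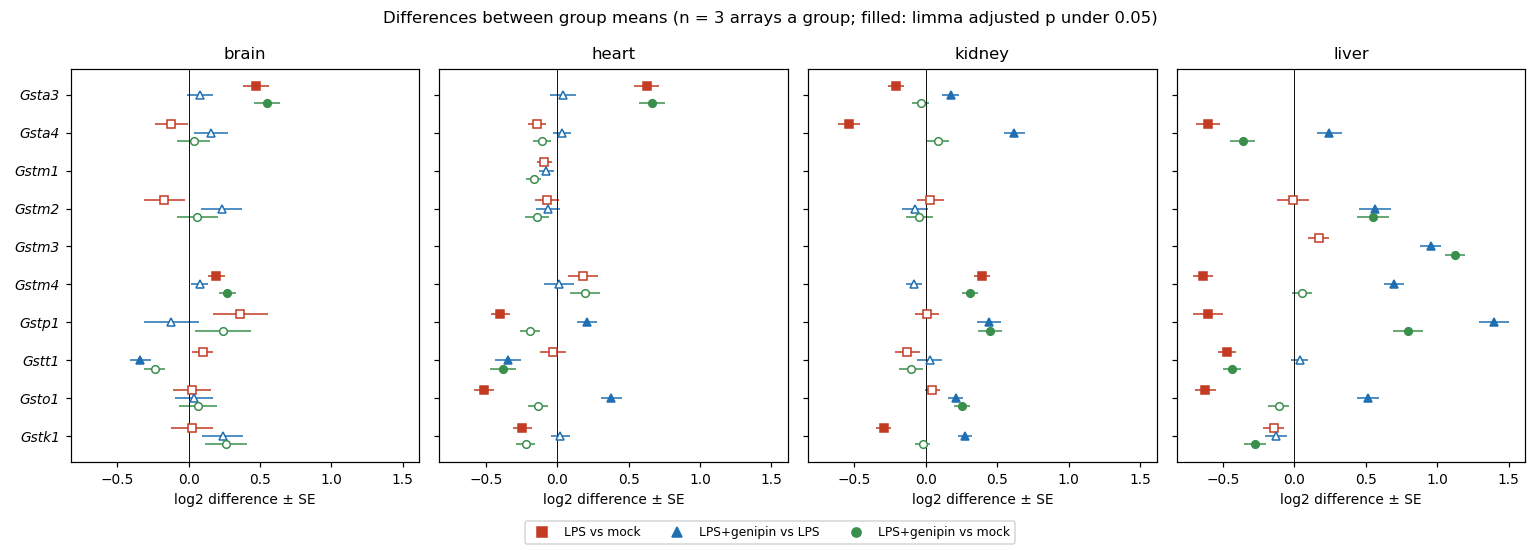
Log2 differences ± SE (3 arrays a group) of the GST genes for the 3 comparisons in each tissue; filled symbols passed limma at an adjusted p under 0.05, and members saturated in both groups are left out. In liver, LPS against mock lies below 0 for each called member and LPS+genipin against LPS lies above 0, up to 1.40 for Gstp1.

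By tissue, the share of members called in either direction outside liver was near that of all genes or below it in most comparisons. Liver did not differ in this for LPS against mock, with 5 of 8 called against 67.3% of all genes. In kidney 4 of 8 members were called with LPS (3 lower, 1 higher; 65.7% of all genes were called), 5 of 8 were higher in LPS+genipin than in LPS (32.8% of all genes were higher and 55.9% called), and 3 of 8 were higher than mock in LPS+genipin (20.6% of all genes were higher and 45.4% called). In heart 4 of 9 were called with LPS (3 lower, 1 higher; 47.7% of all genes), 3 of 9 between LPS+genipin and LPS (2 higher, 1 lower; 42.5%), and 2 of 9 between LPS+genipin and mock (20% of all genes). In brain 2 of 8 rose with LPS (16.7% of all genes rose and 34.6% were called), 1 of 8 was lower in LPS+genipin than in LPS (14.1% lower, 30.7% called) and 2 of 8 were higher in LPS+genipin than in mock (9.08% higher, 14.9% called). In liver 6 of 8 differed from mock in LPS+genipin, 3 higher (Gstm2, Gstm3 and Gstp1) and 3 lower (Gsta4, Gstt1 and Gstk1), where 61.5% of all genes did.

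A test of whether a difference varied among the 4 tissues ran on 6705 genes with 1 probe in all 4. For LPS against mock it was passed by Gsta4, Gstm4, Gstp1, Gstt1 and Gsto1 of the 7 members that no tissue had saturated throughout, and by 77.1% of all genes tested. Gstm4 had the smallest of these values (limma F test, adjusted p = 1.18e-08), with −0.64 in liver and 0.39 in kidney. For LPS+genipin against LPS it was passed by Gsta4, Gstm2, Gstm4, Gstp1, Gstt1, Gsto1 and Gstk1 (74.5% of all genes). Gstp1 had the smallest value there (adjusted p = 2.38e-07), with 1.40 in liver, 0.44 in kidney, 0.21 in heart and −0.12 in brain. As Gsta3 was saturated in liver, it was compared between heart and kidney alone: its LPS difference was 0.84 ± 0.11 higher in heart than in kidney (limma, adjusted p = 2.41e-05). Brain was left out of this comparison, since mock brains read at or near the floor.

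The glutathione supply and the known regulators of GST genes were followed through further gene lists. In liver, Gclc, the catalytic subunit of glutamate-cysteine ligase, which makes the rate-limiting step of glutathione synthesis, read 5391, 5278 and 6069 in mock, 1721, 1177 and 973 in LPS, and 10795, 9860 and 15066 in LPS+genipin. Its groups did not overlap, and it was 3.22 ± 0.23, or 9.34-fold, higher in LPS+genipin than in LPS (adjusted p = 1.90e-05). With LPS it was 2.15 ± 0.23 lower than in mock (adjusted p = 7.64e-05). The modifier subunit Gclm read 11131, 11123 and 11860 in mock, 5630, 5610 and 5431 in LPS, and 18002, 18393 and 19402 in LPS+genipin. It had the same order of groups, with 1.74 ± 0.05 or 3.35-fold for LPS+genipin against LPS (adjusted p = 3.08e-07).

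The list counts that follow for liver stand beside 37.5% of all genes lower, 67.3% called and a median of −0.04 for LPS against mock, and 29.9% higher, 55.1% called and a median of 0.04 for LPS+genipin against LPS. Of the 10 genes of glutathione synthesis, recycling and breakdown tested in liver, 5 were lower and 3 higher with LPS (median −0.35), and 5 were higher and 3 lower in LPS+genipin than in LPS (median 0.25). The breakdown genes Chac2 and Chac1, whose products cleave glutathione, moved in opposite directions with LPS, by −3.13 ± 0.05 (adjusted p = 3.65e-09) and 2.15 ± 0.06 (adjusted p = 4.34e-08). Among the other glutathione transferases, 8 of 10 fell with LPS (median −0.41; Gstt2 by −0.90 ± 0.12, Gstm5 by −0.62 ± 0.10) and 5 of 10 were higher with genipin (median 0.21; Gstm6 by 0.81 ± 0.06, Gstm7 by 0.54 ± 0.11). Of the peroxidases, glutaredoxins and glyoxalases, 6 of 7 fell with LPS (median −0.46), with Hagh, a glyoxalase, at −0.80 ± 0.05, and 2 of 7 were higher with genipin (median 0.15), with the mitochondrial glutaredoxin Glrx5 at 0.66 ± 0.06. The glutaredoxin Glrx instead rose with LPS (0.66 ± 0.06, adjusted p = 2.66e-05) and was 0.52 ± 0.06 above mock in LPS+genipin (adjusted p = 1.24e-04).

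Of the genes that export or process glutathione conjugates in liver, 3 of 7 fell with LPS (Acy3 by −1.18 ± 0.07) and 1 rose (median −0.24). Here 1 of 7 was higher and 3 were lower in LPS+genipin than in LPS (median −0.14; Kyat1 by −1.08 ± 0.07, Abcc5 by −0.87 ± 0.24). Of 15 regulators, 9 were higher and 3 lower in LPS+genipin than in LPS (median 0.54), led by the small MAF genes Maff at 1.53 ± 0.09 (adjusted p = 7.99e-06) and Mafg at 1.16 ± 0.14 (adjusted p = 2.86e-04). With LPS alone the regulators were split, with 5 higher and 6 lower (median −0.03), from Nr1i3, the xenobiotic receptor CAR, at −2.18 ± 0.09 to Mafk at 1.74 ± 0.07. The part of cell content in these liver values was not tested. Sums of neutrophil and of monocyte and macrophage markers moved with the treatments. The summed intensity of 2 measured of 6 neutrophil markers was 3598 to 3856 in mock, 80909 to 86197 in LPS and 57212 to 62162 in LPS+genipin. That of 6 measured of 7 monocyte and macrophage markers was 13634 to 14693, 76457 to 76682 and 43266 to 43432. By contrast, the sum of Csf1r, which is in that list, and C1qa fell with LPS, at 6676 to 7351, 4325 to 4816 and 5327 to 5669. Whether such cells entered the liver was not tested. Of 7 hepatocyte markers the sum was 410689 to 415513, 418878 to 423914 and 406694 to 411769, but 5 of these 7 were saturated in the groups compared, so the sum could hardly show a change. In bulk tissue, fewer cells of a type and less RNA per cell cannot be told apart.

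**Figure D4:**
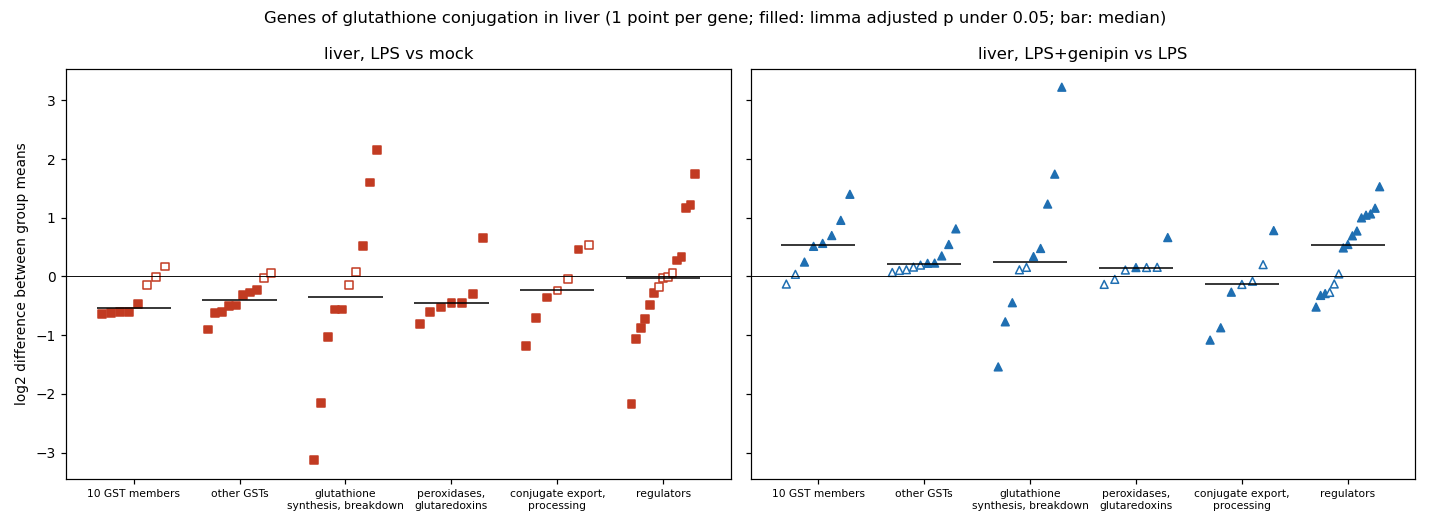
Log2 differences in liver of the tested genes of 6 lists, 1 point per gene, for LPS against mock (left) and LPS+genipin against LPS (right); filled points passed limma at an adjusted p under 0.05 and bars are medians. The members' median lies at −0.54 on the left and 0.54 on the right, and Gclc is the highest point on the right at 3.22.

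Outside liver, the microsomal transferase Mgst1 rose with LPS in heart and kidney. In heart it rose by 1.54 ± 0.08 with LPS (adjusted p = 2.62e-06) and differed by −1.02 ± 0.08 between LPS+genipin and LPS (adjusted p = 4.45e-05), while the theta-class Gstt3 went the other way, at −1.46 ± 0.12 and 0.89 ± 0.12. In kidney Mgst1 rose by 1.00 ± 0.06 with LPS (adjusted p = 2.56e-06) and was 0.33 ± 0.06 higher in LPS+genipin than in LPS (adjusted p = 0.0018). In brain, Gstt3 and Gstm7 were 0.79 ± 0.13 and 0.72 ± 0.09 higher in LPS+genipin than in LPS (adjusted p = 0.0041 and 9.63e-04). Among other GSTs, 3 of 9 rose and 5 fell with LPS in heart, 2 rose and 2 fell of 9 in kidney, and 1 rose and 1 fell of 8 in brain, where 47.7%, 65.7% and 34.6% of all genes were called. The kidney and brain counts lie below those shares.

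The heart and brain values of these genes stand beside the marker shifts given above and beside others. The plasma-type peroxidase Gpx3 rose by 2.01 ± 0.13 with LPS in heart and was −1.74 ± 0.13 in LPS+genipin against LPS, in the hearts whose adipocyte marker sums were highest. In brain, 4 of 4 choroid plexus markers were measured, with sums of 66504 to 67144 in mock, 3824 to 4772 in LPS and 69629 to 70455 in LPS+genipin, and Gpx3 differed by −0.39 ± 0.10 and 0.79 ± 0.10 over the same steps. In kidney the fibroblast and pericyte markers (7 of 7) summed to 37329 to 38854 in mock, 35355 to 35800 in LPS and 56547 to 57380 in LPS+genipin, the group in which Gstp1 and Gsto1 were highest. Over the same order of kidney groups, adipocyte markers (3 of 6) summed to 29496 to 31058, 37387 to 41339 and 55437 to 61908, and hepatocyte markers (4 of 8) to 20638 to 27989, 49039 to 54078 and 58712 to 64843. Monocyte and macrophage markers (6 of 7) summed to 10908 to 11353, 60952 to 65632 and 21344 to 22964, highest in the LPS kidneys, in which Gsta3, Gsta4 and Gstk1 were lowest. Endothelial markers (7 of 7) summed to 24153 to 24876, 17757 to 18626 and 20311 to 21792, lowest in the LPS kidneys. Proximal tubule markers (6 of 6) summed to 314388 to 338840, 305916 to 312508 and 299705 to 303536, lowest in LPS+genipin. Distal nephron markers (5 of 5) summed to 169560 to 171112, 168145 to 170771 and 172884 to 174498. The part of these markers in the GST values was not tested.

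In kidney, the regulators Maff and Cebpb rose by 2.72 ± 0.05 and 2.20 ± 0.06 with LPS (adjusted p = 2.63e-09 and 3.43e-08), among 7 higher and 4 lower of 14 (65.7% of all genes were called). The export pump Abcc3 was lower in LPS+genipin than in LPS kidneys (−1.09 ± 0.06, adjusted p = 3.86e-06). In brain, Maff and Cebpb rose by 1.51 ± 0.09 and 1.46 ± 0.05 with LPS, and both were lower in LPS+genipin than in LPS (−0.76 ± 0.09 and −0.57 ± 0.05), where 1 of 10 regulators was higher and 2 were lower, against 30.7% of all genes called.

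Likeness of pattern was measured as Pearson's r over the 36 arrays, after each tissue's mean was taken off, among the 6705 genes with 1 probe in all 4 tissues. These arrays share tissues and treatments, and the values are given as a description. Nearest to Gstp1 were Fitm2 (0.889), Slc48a1 (0.888) and Psma7 (0.866). Nearest to Gsta4 were Klc4 (0.902), Pip4k2a (0.893) and Dcun1d4 (0.878), and to Gsto1 Fnip2 (0.907), Plpbp (0.894) and Sdf2 (0.875). Gstm4 lay nearest to Cpeb2 (0.85), Rora (0.822) and Nfe2l2 (0.816), the last of which encodes NRF2, and Gstm2 to Reps1 (0.866), Nup62 (0.798) and Ercc8 (0.77).

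For the remaining members the nearest genes were less alike. They were Lrpap1 (0.805) for Gstt1, Pcbd2 (0.8) for Gstk1, Nuak2 (0.725) for Gsta3 and Cyp2d22 (0.649) for the mostly saturated Gstm1. Among members, the closest pairs were Gsta4 with Gstk1 (0.708), Gsta4 with Gsto1 (0.642) and Gstm4 with Gstp1 (0.613), and the lowest was Gsta3 with Gstt1 (−0.232).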

How the data were processed

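RNA of 36 samples was labelled with Cy5 (5 µg each). The deposited values are intensities on a linear scale; limma is named in the submitters' processing notes with no role, and the sources used here name neither the background correction nor how probes were filtered. Sorted values were nearly the same on the 9 arrays of a tissue. Probes were named through the platform annotation, and of a gene's probes measured in a tissue, the brightest by its mean over the 36 arrays was used. Intensities were raised to the floor, converted to log2 and fitted per tissue (9 arrays, 3 group means) with limma 3.58.1 in R 4.3.3, with two-sided p-values adjusted over the 8641 (liver) to 10224 (brain) genes of a tissue. Genes at the same limit in both groups were left out of counts. Where 1 group was saturated, the estimated fold may be too small. Figures were drawn with Python 3.11.15 and matplotlib 3.10.9. On simulated data for LPS against mock, 83% to 96% of differences of 1 were recovered, and 55% to 75% of differences of 0.5. Of the calls there, 2.61% to 7.69% were false. The simulation had normal noise, no saturation limit and a far smaller share of changed genes than was called in the data. Its rates need not carry over. Same-numbered arrays deviated together (every correlation over 0.1) only between LPS+genipin and LPS brains, at 0.143 to 0.193. From each further list, at most 2 genes per tissue and comparison were named, those with the largest differences among the called ones whose arrays did not overlap. The members and lists were chosen with earlier results of these data known. Promoters came from RefSeq.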

Additional observations from a re-analysis of the deposited data

Results flagged for a closer look

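Several members gave differences that varied among the 4 tissues in the limma F test over 6705 genes, which 77.1% of all genes passed for LPS against mock and 74.5% for LPS+genipin against LPS. For LPS against mock the adjusted p was 0.00101 for Gsta4 (log2 differences of −0.12, −0.14, −0.54 and −0.61, in the order brain, heart, kidney, liver), 1.18e-08 for Gstm4 (0.19, 0.18, 0.39 and −0.64), and 1.26e-04 for Gstp1 (0.36, −0.40, 0.01 and −0.61). It was 6.48e-04 for Gstt1 (0.10, −0.03, −0.13 and −0.47) and 2.12e-05 for Gsto1 (0.02, −0.51, 0.04 and −0.62).

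For LPS+genipin against LPS the adjusted p was 0.00142 for Gsta4 (0.16, 0.04, 0.62 and 0.24 in the same order), 0.0027 for Gstm2 (0.23, −0.07, −0.08 and 0.56), 2.23e-06 for Gstm4 (0.08, 0.01, −0.08 and 0.70) and 2.38e-07 for Gstp1 (−0.12, 0.21, 0.44 and 1.40). It was 0.00294 for Gstt1 (−0.34, −0.34, 0.03 and 0.04), 0.0118 for Gsto1 (0.04, 0.38, 0.21 and 0.51) and 0.0277 for Gstk1 (0.24, 0.02, 0.27 and −0.13).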

How the results depend on the processing

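Over the 12 comparisons, 43 member calls were made, and 39 to 48 under the alternatives that keep all arrays. Counts moved by over 1.5 times only in brain and heart. In brain, LPS against mock gave 2 calls, and 1 with no floor or a floor at the 20th percentile and 0 with dim genes left out; LPS+genipin against mock gave 2, and 1 with either the higher floor or dim genes left out; LPS+genipin against LPS gave 1, and 2 with the mean over all probes. In heart, LPS+genipin against mock gave 2, and 4 with the higher floor or limma-trend. With 1 array left out, calls ranged in brain from 1 to 2 in each comparison, in heart from 3 to 5, 1 to 3 and 1 to 3 (LPS against mock, LPS+genipin against LPS, LPS+genipin against mock), in kidney from 4 to 4, 4 to 5 and 3 to 3, and in liver from 5 to 6, 5 to 6 and 6 to 6.

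Replicate numbers are shared between groups. Deviations of same-numbered arrays correlated at 0.143 to 0.193 between LPS+genipin and LPS brains, where pairing may hold and the block kept the 1 member call (Gstt1). In each of the other 11 comparisons at least 1 pair was at or below 0.1 (range −0.526 to 0.261). An array was closest to its own number in 10 of 18 checks in brain, 3 of 18 in heart, 8 of 18 in kidney and 4 of 18 in liver. With the number as a block there were 39 calls, all among the 43, with 1 in brain for LPS against mock and 1 in heart for LPS+genipin against mock. Lost under the block were Gstm4 in brain for LPS against mock (adjusted p = 0.0548) and Gstt1 in heart for LPS+genipin against mock (0.0545). For LPS+genipin against LPS, Gstp1 in heart (0.0673) and Gsta4 in liver (0.0539) were lost.

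Gstm2 reversed in brain with the mean over both probes, from 0.23 to −0.51 (LPS+genipin against LPS) and from 0.06 to −1.61 (against mock), and with its other probe, an alternative chosen after seeing the data, to −1.26 and −3.29, and in kidney from −0.08 to 0.29 and from −0.05 to 0.24. With the mean over both probes, limma also called Gstm2 lower in LPS than in mock in 3 tissues where the probe used gave no call. These were brain (−1.10, adjusted p = 8.17e-06), heart (−0.18, adjusted p = 0.0323) and liver (−0.24, adjusted p = 0.0143). The Gsta4 step in liver from LPS to LPS+genipin also missed the threshold with arrays scaled to the tissue median (adjusted p = 0.0537), the higher floor (0.0562) and only the groups compared (0.0843). Gstp1 in heart did so with saturated genes left out (0.0511) and only the groups compared (0.0542). The share of all genes called in brain for LPS+genipin against mock was 14.9%, and 22.7% with only the groups compared, and for LPS+genipin against LPS 30.7% and 19%. With 1 array left out, the all-gene share was as low as 8.55% in brain and 12.7% in heart for LPS+genipin against mock. Saturation limits Gstm1, Gsta3 in liver and Gstk1 in liver, and 3 arrays a group limit the precision.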
